A study of Homo sapiens with 9 samples.

Results

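The GATA2 and GATA3 loci were described by the open chromatin measured in and around these genes with ATAC-seq, in which Tn5 transposase cuts accessible DNA and the cut fragments are sequenced. A region belonged to a locus when its centre lay inside the RefSeq span of the gene (GRCh38) or within 100 kb of either end of it. This gave 24 regions for GATA2 and 14 for GATA3, so 38 of the 148797 regions in the table. The cells were SK-N-BE(2)c, an established human neuroblastoma line that is also a single line, so no other genetic background was sampled. All 9 libraries came from cells transfected with an antisense oligonucleotide (ASO) at 100 nM and collected 48 h later. ASO2 and ASO10 both target the long non-coding RNA NESPR, NCA is the negative control oligonucleotide, and each group had 3 libraries. Every group was therefore transfected, and no untransfected cells were analysed here. The labels do not say that replicates were separate cultures, so p-values measure the spread between libraries, which may be technical.

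GATA2 and GATA3 encode related zinc finger transcription factors that bind DNA at GATA motifs. Both act in the development of sympathetic neurons and adrenal chromaffin cells, where they help to switch on genes of catecholamine synthesis. In adrenergic neuroblastoma, GATA3 is counted with HAND2 and ISL1 among the factors that hold each other and the cell identity in place through large enhancers. Outside the nervous system, GATA2 is known for its role in blood stem cells and GATA3 for its role in T helper cells.

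Accessibility of sympathoadrenal genes was checked first. Of 10 marker genes of this lineage, 9 had a region within 1 kb of a gene end, and 8 of them had more than 10 CPM (counts scaled to the effective library size from TMM) there in NCA. Of all 20056 protein-coding genes, 14685 had such a region and 10388 exceeded 10 CPM, with a median of 10.7 CPM. TH, the rate-limiting enzyme of catecholamine synthesis, had no such region, while DBH, which makes noradrenaline, had 18.2 CPM. Of 10 markers of blood, liver, muscle and pancreas, 3 had a region and 0 exceeded 10 CPM, and GATA1, the blood paralogue, had none. Total counts ran from 7293565 to 10948569 per library.

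GATA2 lies on chromosome 3 (128479422 to 128493201, minus strand) and has 2 RefSeq start sites. GATA3 lies on chromosome 10 (8045333 to 8075198, plus strand) and has 6. Both GATA2 sites and 4 of the 6 GATA3 sites fell in a region of the table. The 250 bases before a start site are shown for the outermost start and 1 internal start of each gene, all in tested regions, as the reference (RefSeq, GRCh38.p14), 5′ to 3′ along the gene. Capitals mark CCAAT, a motif of the factor NF-Y, and GGGCGG, a motif of SP1 and related factors, on either strand.
GATA2 outermost start, chr3:128493202-128493451, minus strand: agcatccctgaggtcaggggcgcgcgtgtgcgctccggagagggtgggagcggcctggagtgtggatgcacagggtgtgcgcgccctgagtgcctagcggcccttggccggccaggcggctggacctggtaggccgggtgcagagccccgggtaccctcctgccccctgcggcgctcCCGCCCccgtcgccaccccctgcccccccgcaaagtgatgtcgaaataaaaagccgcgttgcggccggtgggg
GATA2 internal start, chr3:128488531-128488780, minus strand: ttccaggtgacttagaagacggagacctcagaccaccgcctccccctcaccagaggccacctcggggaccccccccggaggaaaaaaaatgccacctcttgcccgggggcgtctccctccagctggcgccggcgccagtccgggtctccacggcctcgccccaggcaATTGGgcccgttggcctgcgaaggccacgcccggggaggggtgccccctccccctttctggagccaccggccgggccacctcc
GATA3 outermost start, chr10:8045083-8045332, plus strand: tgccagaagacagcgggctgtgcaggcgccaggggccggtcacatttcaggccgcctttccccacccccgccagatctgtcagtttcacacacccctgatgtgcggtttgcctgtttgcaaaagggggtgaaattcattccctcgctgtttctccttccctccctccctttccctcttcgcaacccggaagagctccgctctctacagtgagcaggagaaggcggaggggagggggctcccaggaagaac
GATA3 internal start, chr10:8053391-8053640, plus strand: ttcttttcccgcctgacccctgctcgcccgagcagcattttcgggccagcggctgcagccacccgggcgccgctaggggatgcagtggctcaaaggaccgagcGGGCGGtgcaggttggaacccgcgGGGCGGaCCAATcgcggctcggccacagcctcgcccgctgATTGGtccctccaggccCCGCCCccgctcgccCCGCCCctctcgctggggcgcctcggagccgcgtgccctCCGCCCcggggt
The GATA3 internal window held 2 matches to CCAAT, 5 to GGGCGG and 30 CG dinucleotides, and its GC content was 74.8%. Over the 6 GATA3 windows, CG dinucleotides ran from 4 to 30 and GC content from 55.6% to 74.8%. The printed internal window was thus the highest in both and does not stand for the other internal starts. The GATA3 outermost window held neither motif and 11 CG dinucleotides. The GATA2 windows held 24 CG dinucleotides at the outermost start and 18 at the internal start. Across 35116 windows of this length before RefSeq start sites, the median was 11 CG dinucleotides, 32.0% held CCAAT and 42.6% held GGGCGG on either strand. A GATA motif (spelled AGATAA or as the hexamer AGATAG, and with a leading base changed as TGATAA or as the hexamer TGATAG, either strand) was in 0 of the 8 windows of both genes and in 22.3% of all windows. These letters are a description of the windows, and binding was not measured.

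By the rule, only 1 region of each locus lay within 1 kb of a gene end, and it covered the outermost start site in both cases. The other 23 GATA2 regions and 13 GATA3 regions were distal by this rule. The nearest of these lay 2039 bases from a GATA2 end and 2600 bases from a GATA3 end. The distal class therefore includes the internal start sites. All 4 windows printed above lay entirely inside a region of the table. No region lay within 1 kb of the downstream end of either gene. Exon structure was not used here, so regions inside a gene are not assigned to exons or introns.

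**Figure D1:**
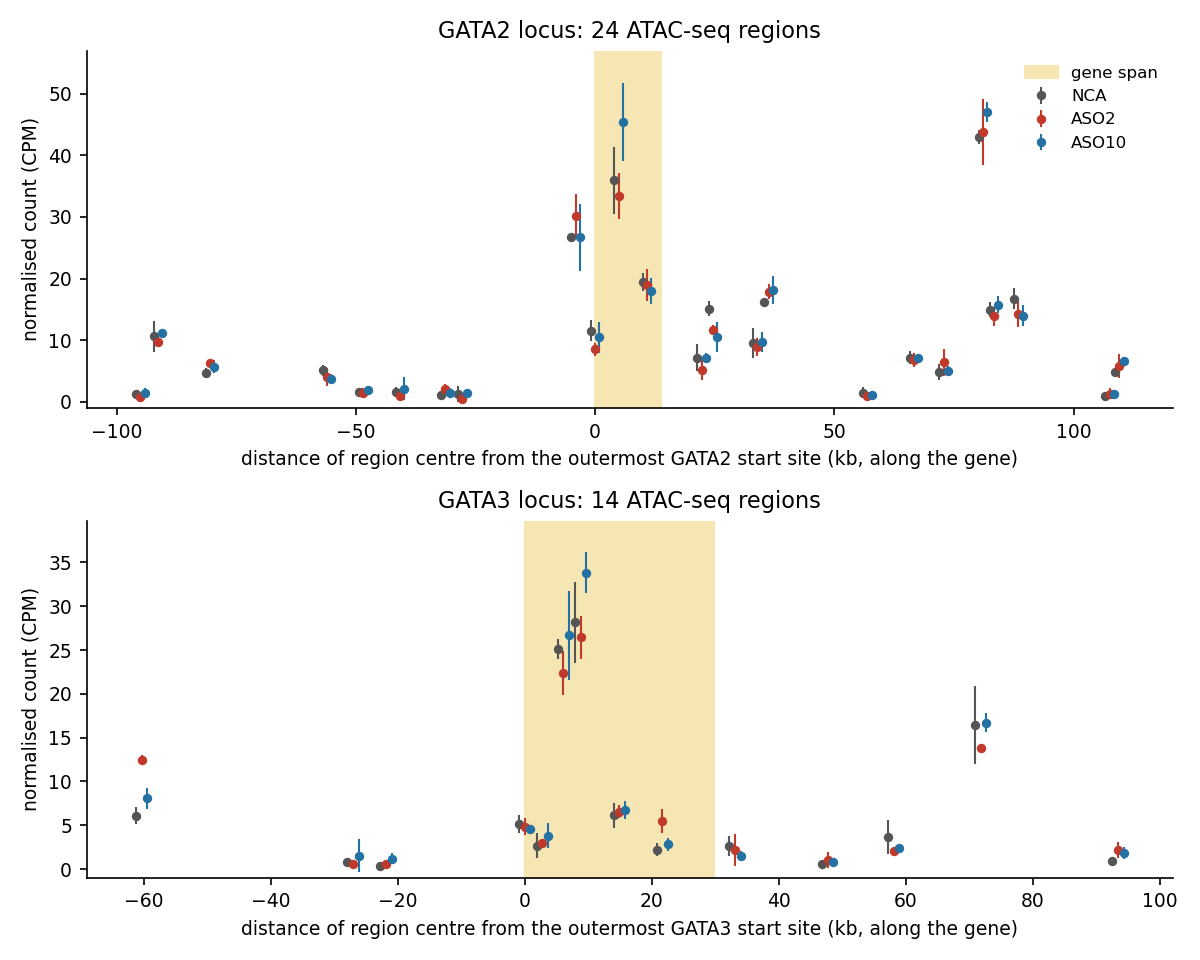
Normalised count (CPM, mean ± SD of 3 libraries) of each region against the distance of its centre from the outermost start site, in kb along the gene, for GATA2 (upper) and GATA3 (lower). Groups are offset sideways by less than 1 kb so that they can be seen, and the shaded band is the gene span; the highest regions of GATA3 lie inside the gene, and one of the highest of GATA2 lies 81.0 kb past its start.

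The levels in control cells are described for each gene, and the 2 loci were not tested against each other. The mean NCA level ranged from 0.870 to 42.9 CPM over the GATA2 regions (median 7.18) and from 0.383 to 28.2 CPM over the GATA3 regions (median 3.18). The median over all 148797 regions was 2.02 CPM. Of the 38 regions, 11 were under 2 CPM, 7 of them at GATA2 and 4 at GATA3. Since regions differed in width from 175 to 2328 bases, levels were also compared per kb.

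At GATA2 the highest region per kb was not at the gene. It was chr3:128404421-128405115 in EEFSEC, the neighbouring gene for a selenocysteine elongation factor, with 24.1 ± 2.45 CPM per kb in NCA (SD, n = 3). Another EEFSEC region, chr3:128411122-128413186, followed with 20.8 ± 0.559 CPM per kb. The region at the outermost GATA2 start had 15.8 ± 2.34 CPM per kb and the wide region over the internal start had 15.4 CPM per kb, which is within the spread of each other. In this order the 4 regions stood at percentiles 97.3, 96.1, 92.6 and 92.2 of all regions by level per kb.

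At GATA3 the highest region inside the gene lay over internal start sites. The region chr10:8053380-8054879, which holds 2 GATA3 start sites and those of the antisense RNA GATA3-AS1, had 18.8 ± 3.09 CPM per kb in NCA (SD, n = 3). A region with no gene, chr10:8116694-8117564, lies 71.8 kb past the outermost start and had 18.9 ± 5.11 CPM per kb, so these 2 did not differ beyond their spread. The region at the outermost GATA3 start had 9.81 ± 1.95 CPM per kb, at percentile 80.4 of all regions.

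The signal was not even on both sides of the genes. Before the outermost GATA2 start, the region in GATA2-AS1 had 26.8 CPM with NCA, and the 8 regions farther out, 27.7 to 95.1 kb away, had 1.08 to 10.6 CPM. The 12 regions past the GATA2 downstream end had 0.870 to 42.9 CPM, and 6 of them lay in EEFSEC. Before GATA3 the only region over 1 CPM away from the gene was the one in TAF3 (6.11 CPM), since the others had 0.770 and 0.383 CPM. The 5 regions past the downstream end of GATA3, none in a RefSeq gene, had 0.527 to 16.5 CPM.

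Enough counts to be tested were present in 23 GATA2 regions and 11 GATA3 regions. The 4 others (1 at GATA2 and 3 at GATA3) had from 0 to 31 counts in a library and were left out of the fit. The tests asked whether accessibility at these loci differed after either oligonucleotide against NESPR. The 2 comparisons with NCA share its 3 libraries.

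Few regions changed. Under ASO2, 2 of the 34 tested regions passed edgeR's quasi-likelihood test at an adjusted p under 0.05 (Benjamini-Hochberg over all 119417 tested regions), both higher and both at the GATA3 locus. This is 5.88% of the regions tested, beside 5.6% of all tested regions (4.79% higher and 0.808% lower). Under ASO10, edgeR called 0 of 34, beside 1.09% of all tested regions (0.876% higher and 0.21% lower), and DESeq2 and limma-voom called 0 as well. At an unadjusted p under 0.05 there were 3 of 34 under ASO10, beside 10.6% of all regions. In the direct comparison, 1 of 34 was lower under ASO2 than under ASO10, beside 3.23% of all regions (2.54% higher and 0.682% lower). At an unadjusted p under 0.05 there were 6 of 34 under ASO2 (16.5% of all regions) and 5 of 34 between the ASOs (14.6%). The median log2 fold change was -0.10 under ASO2, 0.084 under ASO10 and -0.067 between them, where all tested regions had -0.024, -0.0067 and -0.0021. The members' shares of calls were thus near those of the table as a whole. Groups did not overlap in 6 of the 34 regions for ASO2 against NCA, 4 for ASO10 against NCA and 7 for ASO2 against ASO10. Over all tested regions these shares were 20.5%, 15.7% and 19.3%.

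**Figure D2:**
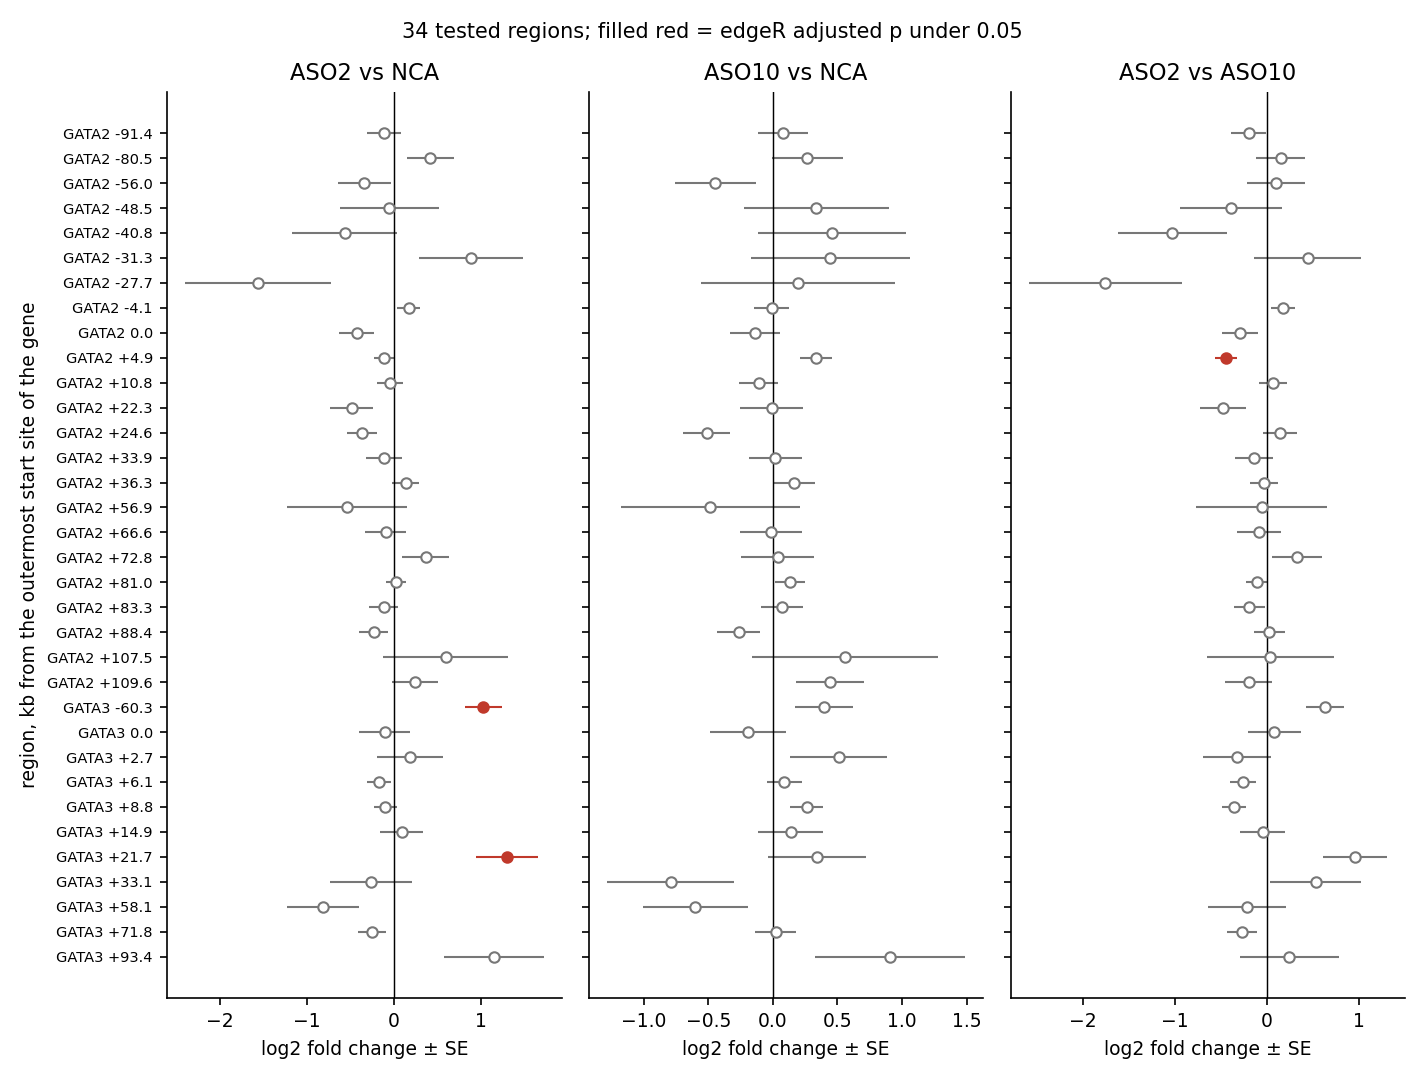
Log2 fold change ± SE (edgeR) of the 34 tested regions, ordered by locus and by distance in kb from the outermost start site, for ASO2 against NCA, ASO10 against NCA and ASO2 against ASO10; the 3 panels have different horizontal scales. Filled red points are the 3 calls, and all other intervals belong to regions that did not pass the threshold.

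The gene-end regions did not pass in any comparison. The GATA2 outermost start, chr3:128492839-128493567, had 12.8, 9.58 and 12.3 CPM in the NCA libraries, 7.58, 9.66 and 8.35 under ASO2, and 13.3, 9.90 and 8.20 under ASO10. The lowest NCA library lay just below the highest ASO2 library, and the ASO10 libraries spread over the range of both. Its log2 fold change was -0.43 ± 0.20 (SE) for ASO2 against NCA (edgeR adjusted p = 0.229), a fold of 0.742 with a 95% interval from 0.567 to 0.971. Its fold for ASO10 against NCA was 0.909 (interval 0.697 to 1.18, edgeR adjusted p = 0.860). Of the GATA2 regions this one had the smallest unadjusted p under ASO2 (0.0299).

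The GATA3 outermost start, chr10:8045062-8045588, had 3.99, 5.93 and 5.56 CPM with NCA, 5.61, 5.15 and 3.76 under ASO2, and 4.22, 4.67 and 4.69 under ASO10. The 3 groups overlapped. The fold was 0.928 for ASO2 (interval 0.626 to 1.37, edgeR adjusted p = 0.903) and 0.876 for ASO10 (interval 0.588 to 1.30, edgeR adjusted p = 0.873). Between the ASOs it was 1.06 (interval 0.712 to 1.58, edgeR adjusted p = 0.935).

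The internal start sites separated the 2 oligonucleotides at GATA2. The region chr3:128487134-128489462 lies inside GATA2, 4.90 kb from the outermost start, and holds the internal GATA2 start site and that of the antisense RNA GATA2-AS1. It had 29.8, 40.0 and 38.1 CPM with NCA, 35.9, 35.2 and 29.2 under ASO2, and 45.0, 39.3 and 52.0 under ASO10. All 3 ASO2 libraries lay below all 3 ASO10 libraries, while both groups overlapped NCA. ASO2 was lower than ASO10 by a fold of 0.735 (interval 0.623 to 0.867), or -0.44 ± 0.12 on the log2 scale with its SE, at an edgeR adjusted p of 0.0145. Against NCA it had -0.11 ± 0.12 under ASO2 (edgeR adjusted p = 0.721) and 0.33 ± 0.12 under ASO10 (edgeR adjusted p = 0.192). The call was lost with loess offsets, which remove each library's trend with abundance (log2 fold change -0.30, adjusted p = 0.108). It was also lost without ASO2 replicate 3 (-0.35, adjusted p = 0.156), ASO10 replicate 1 (-0.45, adjusted p = 0.0704) or ASO10 replicate 3 (-0.34, adjusted p = 0.276).

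The GATA3 region over 2 of its internal start sites (chr10:8053380-8054879) had 29.8, 22.9 and 31.8 CPM with NCA, 29.2, 25.6 and 24.5 under ASO2, and 36.4, 31.7 and 33.3 under ASO10. Here too the ASO2 libraries lay below the ASO10 libraries and overlapped NCA. ASO2 and ASO10 libraries did not overlap, in either direction, in 19.3% of all tested regions. The difference did not pass the threshold over all regions (fold 0.779, interval 0.653 to 0.930, edgeR adjusted p = 0.107). It passed only when every library had to hold at least 10 counts (edgeR adjusted p = 0.0478). With loess offsets its log2 fold change moved from -0.36 to -0.24 (edgeR adjusted p = 0.301). ASO10 against NCA had a fold of 1.20 (interval 1.00 to 1.43, edgeR adjusted p = 0.453).

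The neighbouring GATA3 region chr10:8050533-8052300, which also holds a start site, had 25.1 ± 1.11 CPM in the control libraries, 22.4 ± 2.51 with ASO2 and 26.7 ± 5.06 with ASO10 (mean ± SD, n = 3 in each group). Here the ASO2 and ASO10 libraries overlapped. Its edgeR adjusted p was 0.594 for ASO2, 0.874 for ASO10 and 0.372 between them.

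**Figure D3:**
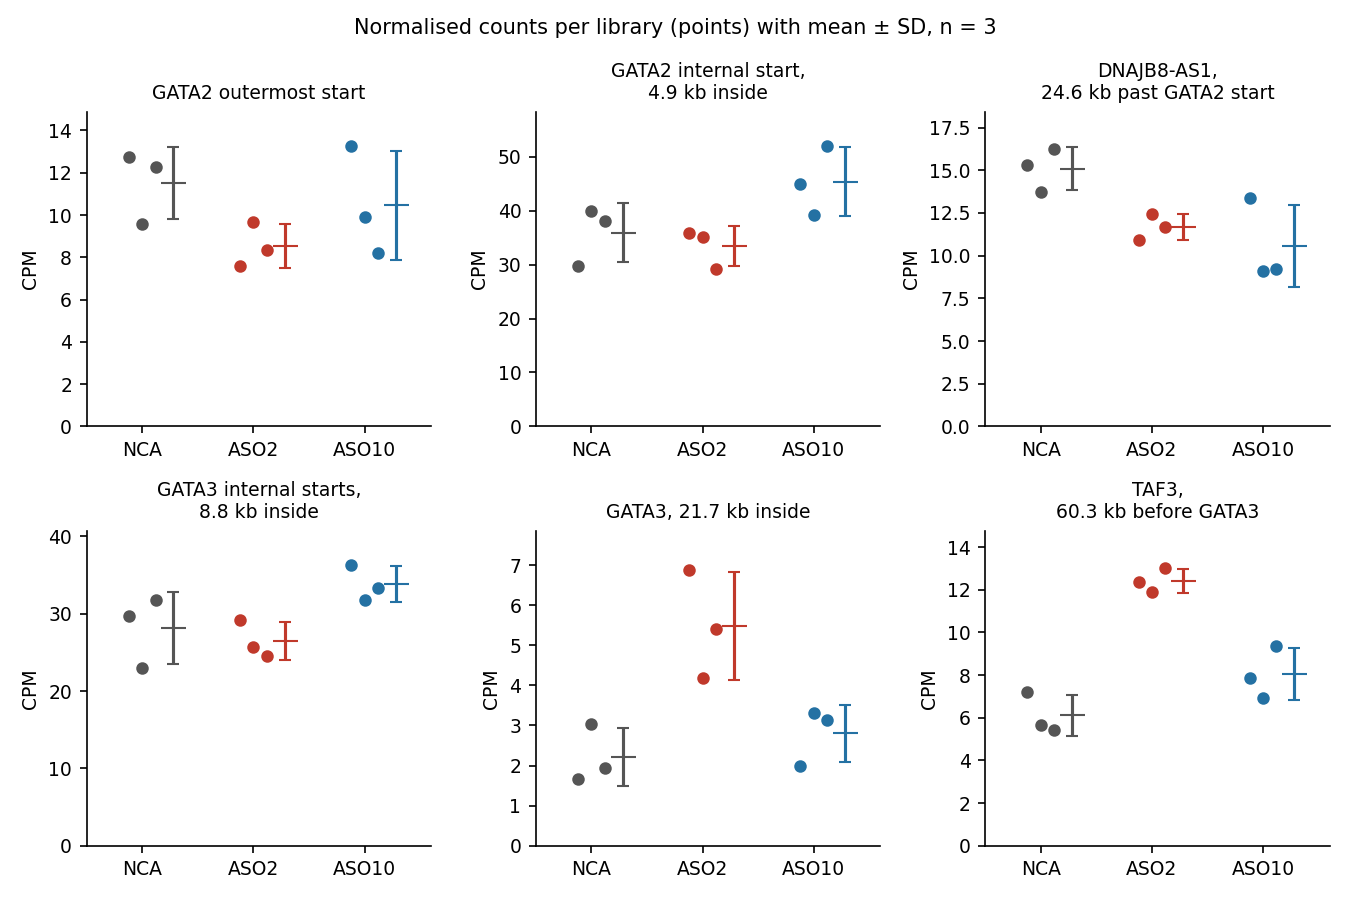
CPM of each library (points) with mean ± SD beside them (n = 3 per group) for 6 regions of the 2 loci; every vertical axis starts at 0. The ASO2 libraries stand above all NCA libraries in the GATA3 region 21.7 kb inside the gene and in the TAF3 region, and below all ASO10 libraries in the GATA2 region 4.90 kb and the GATA3 region 8.80 kb inside the genes.

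A weak region deep inside GATA3 rose under ASO2. The region chr10:8066751-8067218 lies 21.7 kb past the outermost start and holds no RefSeq start site. It had 1.67, 3.03 and 1.93 CPM with NCA, 6.88, 4.19 and 5.41 under ASO2, and 1.99, 3.30 and 3.13 under ASO10. Every ASO2 library was above every NCA and every ASO10 library, and the latter groups overlapped. The rise under ASO2 was 2.46-fold (interval 1.51 to 4.01), or 1.30 ± 0.36 on the log2 scale with its SE, at an edgeR adjusted p of 0.00938. ASO10 against NCA had a fold of 1.27 (interval 0.755 to 2.13, edgeR adjusted p = 0.813), and the direct difference between the ASOs did not pass (fold 1.94, interval 1.21 to 3.12, edgeR adjusted p = 0.113). The counts behind these values were low, from 13 to 59 per library. The call under ASO2 was lost without NCA replicate 1 (log2 fold change 1.14, adjusted p = 0.0846), NCA replicate 3 (1.21, adjusted p = 0.0589) or ASO2 replicate 1 (1.12, adjusted p = 0.118), each a fit with fewer samples.

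The other call lay inside another gene. The region chr10:7984400-7985617 is in TAF3, which encodes a subunit of the general transcription factor TFIID, 60.3 kb before the outermost GATA3 start. It had 7.21, 5.67 and 5.45 CPM with NCA, 12.3, 11.9 and 13.0 under ASO2, and 7.86, 6.94 and 9.38 under ASO10. The ASO2 libraries stood above all 6 others, and the ASO10 and NCA libraries overlapped. The rise under ASO2 was 2.04-fold (interval 1.52 to 2.73), or 1.03 ± 0.21 on the log2 scale with its SE, at an edgeR adjusted p of 0.000135, and no alternative or left-out library changed this call. ASO10 against NCA had a fold of 1.32 (interval 0.972 to 1.79, edgeR adjusted p = 0.541). Between the ASOs the fold was 1.55 (interval 1.17 to 2.05, edgeR adjusted p = 0.0618). That comparison passed in 3 alternatives: with total counts (adjusted p = 0.0484), with at least 10 counts in every library (0.0323) and with only the 2 groups fitted (0.0406). Which gene this region acts on was not measured.

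On the other side of GATA2, a region in DNAJB8-AS1 passed in neither comparison although it separated both ASOs from NCA. DNAJB8-AS1 is an antisense RNA to the chaperone gene DNAJB8. The region, chr3:128468164-128469054, had 15.3, 13.7 and 16.2 CPM with NCA, 10.9, 12.4 and 11.7 under ASO2, and 13.4, 9.10 and 9.25 under ASO10. The highest of the 6 ASO libraries was below the lowest of the control libraries. Over all tested regions, ASO2 did not overlap NCA in 20.5% and ASO10 did not overlap NCA in 15.7%, in either direction. The share separated from NCA under both ASOs in the same direction was not computed. The fold was 0.775 for ASO2 (interval 0.610 to 0.985, edgeR adjusted p = 0.258) and 0.701 for ASO10 (interval 0.549 to 0.894, edgeR adjusted p = 0.161). Both values share the NCA libraries and are not independent of each other.

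Inside GATA2, the region chr3:128481461-128483332, 10.8 kb past the outermost start and 2039 bases from the downstream end, had 19.4 ± 1.43 CPM with NCA, 18.9 ± 2.64 with ASO2 and 18.0 ± 2.12 with ASO10. Inside GATA3, chr10:8060012-8060410 had 6.13 ± 1.41, 6.54 ± 0.765 and 6.74 ± 1.05 CPM in the same order, and chr10:8047933-8048216 had 2.67 ± 1.44, 3.02 ± 0.364 and 3.80 ± 1.44 CPM. With these, all 7 regions inside the 2 genes have been given, and in these last 3 the groups overlapped in every comparison (edgeR adjusted p from 0.687 to 0.960).

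The other 3 regions with an unadjusted p under 0.05 were weak and did not pass. They were chr10:8102945-8103849 (fold 0.567 under ASO2, 3.68 CPM with NCA, edgeR adjusted p = 0.293), chr10:8138641-8138830 (fold 2.22 under ASO2, 0.971 CPM, edgeR adjusted p = 0.285) and chr3:128520847-128521025 (fold 0.296 for ASO2 against ASO10, 1.40 CPM with ASO10, edgeR adjusted p = 0.287). They lie in no RefSeq gene.

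The other named distal regions, among the most accessible, passed in no comparison. The region with most signal per kb, chr3:128404421-128405115 in EEFSEC, had 16.7 ± 1.70 CPM with NCA, 14.2 ± 2.101 with ASO2 and 13.9 ± 1.73 with ASO10 (edgeR adjusted p from 0.505 to 0.963). The EEFSEC region chr3:128411122-128413186 had 42.9 ± 1.15 CPM in the control libraries, 43.7 ± 5.31 with ASO2 and 47.0 ± 1.64 with ASO10 (mean ± SD over 3 libraries), and the edgeR adjusted p ran from 0.745 to 0.945 in the 3 comparisons. The region chr3:128496474-128498084, in GATA2-AS1 and 4.08 kb before the outermost GATA2 start, had 26.8 ± 0.465, 30.1 ± 3.66 and 26.7 ± 5.43 CPM in the same order (edgeR adjusted p from 0.563 to 0.991). At GATA3, the region 71.8 kb past the start had 16.5 ± 4.45, 13.8 ± 0.525 and 16.7 ± 1.10 CPM (edgeR adjusted p from 0.448 to 0.980). Intervals of the fold for ASO2 against ASO10 were, in this order, 0.814 to 1.28, 0.793 to 1.09, 0.947 to 1.36 and 0.664 to 1.03. Single comparisons separated the libraries all the same: the ASO10 libraries lay above NCA at chr3:128411122-128413186, the ASO2 libraries lay above NCA at chr3:128496474-128498084, and the ASO2 libraries lay below ASO10 at chr10:8116694-8117564. Over all tested regions, groups did not overlap in 15.7%, 20.5% and 19.3% in these comparisons, in either direction.

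Summed over each locus, the groups stayed close. The 23 distal GATA2 regions together had 251.1 ± 5.90 CPM in the control libraries, 244.9 ± 16.8 with ASO2 and 262.5 ± 19.7 with ASO10 (mean ± SD over 3 libraries). The 13 distal GATA3 regions together had 95.9 ± 9.01, 98.8 ± 6.26 and 107.8 ± 9.11 CPM. The libraries of the groups overlapped in both sums, and the highest of the 9 was an ASO10 library in each. The difference of mean log2 sums between ASO10 and NCA was 0.062 at GATA2 and 0.17 at GATA3, where the SD between libraries was 0.079 and 0.13. These sums are descriptions of chosen regions and were not tested.

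**Figure D4:**
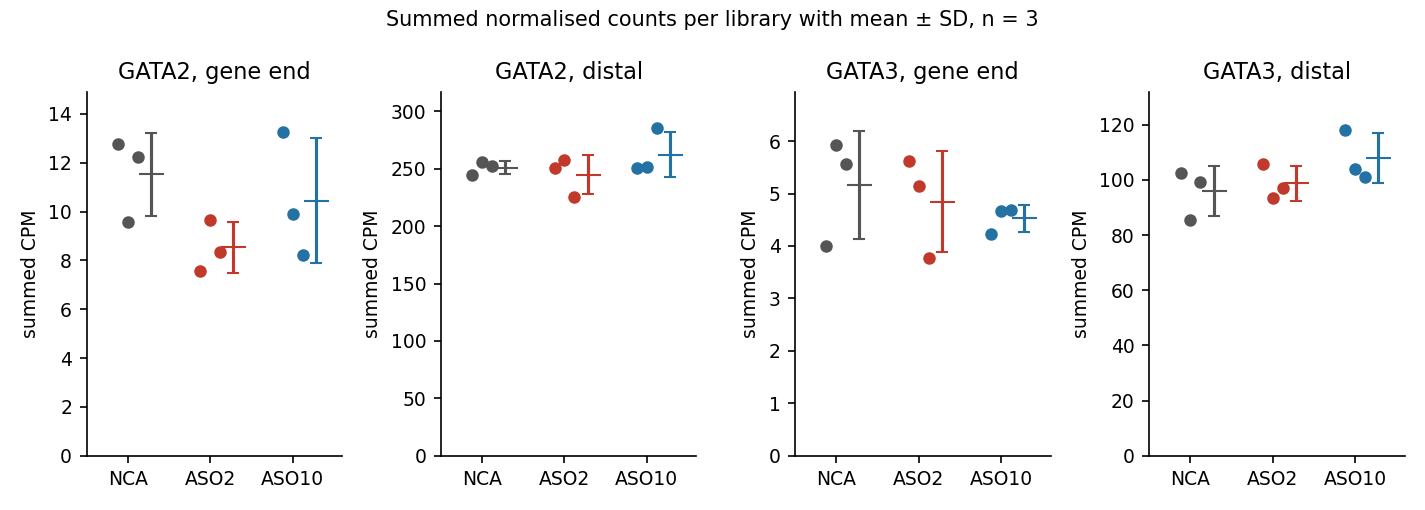
Summed CPM of the gene-end region and of all distal regions of each locus, per library (points) with mean ± SD (n = 3 per group); axes start at 0. The distal sums of GATA2 lie between 225.9 and 285.2 CPM in all 9 libraries and those of GATA3 between 85.6 and 118.2 CPM.

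Related genes were described by the same rule. Among 15 genes of the GATA family and its partners (such as ZFPM1 and ZFPM2, the FOG cofactors, and LMO1, a neuroblastoma risk gene), 259 regions were tested. Under ASO2, 17 were higher and 1 lower (6.95%, beside 5.6% of all regions, of which 4.79% higher and 0.808% lower), with a median log2 fold change of 0.048. Of the 17, 9 lay at ZFPM2, 6 at TCF12 and 2 at LMO4, and the lower one lay at GATA4. Under ASO10, 1 was higher and 1 lower (0.772%, beside 1.09%), and between the ASOs 6 were higher and 0 lower under ASO2 (2.32%, beside 3.23%).

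Among 18 adrenergic factors, such as HAND2, ISL1 and TFAP2B, 357 regions were tested. Under ASO2, 15 were higher (4.20%, beside 4.79% of all regions) and 7 lower (1.96%, beside 0.808%). Calls in both directions made up 6.16%, beside 5.6%, and the median log2 fold change of the 357 was -0.071. The higher ones included 8 of 44 tested regions at EYA1, 3 of 48 at ZNF536 and 1 of 10 at ISL1. The lower ones were 4 of 39 tested regions at MYCN, 2 of 44 at EYA1 and 1 of 14 at TBX2. At HAND2, 0 of 17 tested regions were called by edgeR in any of the 3 comparisons. Under ASO10, 3 were higher and 3 lower (1.68%, beside 1.09%). Between the ASOs, 11 were higher and 3 lower under ASO2 (3.92%, beside 3.23%).

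Genes were also ranked by how closely their gene-end level followed that of GATA2 or GATA3 over the 9 libraries (Pearson r of log2 CPM, with 0.5 added, among genes of at least 5 CPM). For GATA2 the highest were FAM47E (r = 0.952), ZGRF1 and LARP7 (r = 0.936 each). ZGRF1 and LARP7 had the same value because they share their gene-end regions. For GATA3 they were KIF5A (0.939), HSD17B10 (0.896) and MACROD2 (0.895). The 99th percentile over the ranked genes was 0.822 for GATA2 and 0.701 for GATA3. These are descriptions over 9 libraries of unequal depth, and no p was computed. Effects of depth or preparation on these values were not tested.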

How the data were processed

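The deposited values are raw counts, whole numbers for 148797 regions in each of 9 ATAC-seq libraries. The submitters' processing notes name hg38, Bowtie2 2.2.6, MACS2 2.1.2 and DESeq2 1.42.0 without their roles. The Tn5 shift, filters and unit counted are not given in the sources used here. Coordinates are those of the region names.

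Regions were filtered with filterByExpr (119417 left), scaled by TMM and tested with edgeR 4.0.16 (quasi-likelihood, robust, 9 libraries, a term per group; R 4.3.3), with Benjamini-Hochberg adjustment at 0.05. Standard errors and 95% intervals derive from the F statistic. Alternatives used DESeq2 1.42.0, limma 3.58.1 (voom) and other scalings and filters. On simulated counts for ASO2 against NCA, 23.7% of 186 regions changed by 1 (log2) were recovered. Of the 38 changed regions whose mean exceeded 3 log2 CPM, 92.1% were recovered. Of 50 calls, 6 were false (113909 regions). All other simulated regions were left unchanged, whereas 5.6% of all tested regions were called in the data. These shares therefore do not give the sensitivity of the reported comparison.

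The members, lists and tests were chosen with earlier results of these data known. Regions named in full were those at gene ends, those called, the 3 highest distal regions by mean CPM per locus and the smallest p per locus and comparison. EEFSEC region chr3:128404421-128405115 was named after its values were seen, for its level per kb.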

Additional observations from a re-analysis of the deposited data

Results flagged for a closer look

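The region over the internal GATA2 start, chr3:128487134-128489462, differed between the 2 oligonucleotides when they were compared directly. Its log2 fold change for ASO2 against ASO10 was -0.44 (edgeR adjusted p = 0.0145), and its mean ± SD over 3 libraries was 36.0 ± 5.44 CPM with NCA, 33.4 ± 3.70 with ASO2 and 45.4 ± 6.36 with ASO10. ASO2 was lower in 3 of 3 libraries than every ASO10 library, and these groups did not overlap in 19.3% of all tested regions. The call was lost with loess offsets (edgeR adjusted p = 0.108). It was also lost without ASO2 replicate 3, ASO10 replicate 1 or ASO10 replicate 3. Groups of 3 libraries are too small for a test of single outlying libraries, so none was run.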

How the results depend on the processing

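The 48 results were recomputed 844 times in all, and 804 of these left direction and call as they were, or the value within its limit. The cause of the others was not tested, except that fits without a library have fewer samples and that the limits on fold and window are stricter by construction. The count of calls under ASO2 (2) was 1 within 50 kb of the gene and ran from 1 to 2 without each library in turn; without NCA replicate 1, NCA replicate 3 or ASO2 replicate 1 it was 1. The count under ASO10 was 0 in every fit run. The count between ASO2 and ASO10 (1) was 0 with loess offsets, 0 with a log2 fold change over 1 as well, 2 with total counts, 2 with only the 2 groups fitted, 3 with at least 10 counts in every library, and from 0 to 1 without each library in turn. Removing 623 regions with over 0.1% of all counts or on unplaced sequence, an alternative chosen after seeing the data, changed none of these counts. With a replicate block the counts were 2, 0 and 1, and the log2 fold change of the GATA2 internal region was -0.44 (edgeR adjusted p = 0.0291). Same-numbered libraries deviated from their group means with correlations from -0.036 to 0.013, and others from -0.021 to 0.031. These values give no sign that the numbers pair the libraries. They cannot exclude a pairing, since counting noise in weak regions could hide it.

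Signs changed only in comparisons past no threshold. Differences of the distal sums, which were not tested, changed sign when single libraries were left out. For ASO10 against NCA the difference at GATA2 ran from -0.0034 to 0.096. For ASO2 against NCA it ran from -0.075 to 0.016 at GATA2 and from -0.039 to 0.093 at GATA3. With loess offsets the distal GATA2 sum for ASO10 against NCA became -0.019, chr10:8045062-8045588 became -0.016 between the ASOs, chr10:8050533-8052300 became -0.017 under ASO10, chr10:8116694-8117564 became -0.043 under ASO10, and chr3:128411122-128413186 became -0.018 under ASO10 and 0.054 between the ASOs. Under ASO10, chr10:8116694-8117564 was also -0.0098 with total counts and -0.00072 with the stricter filter. Without each library in turn, log2 fold changes ran from -0.26 to 0.053 (ASO2) and -0.027 to 0.25 (between the ASOs) for chr10:8045062-8045588, -0.23 to 0.0027 (ASO2) for chr10:8053380-8054879, -0.16 to 0.22 (ASO10) for chr10:8116694-8117564, -0.075 to 0.098 (ASO2) for chr3:128411122-128413186 and -0.18 to 0.12 (ASO10) for chr3:128496474-128498084.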
